A study of Mus musculus with 6 samples.

Results

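The TGF-beta pathway genes examined here were 3 ligands (Tgfb1, Tgfb2 and Tgfb3), 3 receptors (Tgfbr1, Tgfbr2 and Tgfbr3) and 3 genes tied to the pathway in the matrix or as targets (Ltbp2, Tgfbi and Pmepa1). They were taken by symbol, and all 9 were found, 1 row each, among 27734 genes. Levels are given in FPKM, fragment numbers scaled by gene-model length and by library size. All 9 averaged 1 FPKM or more and were tested, with 14012 genes tested in all.

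The cells were chondrocytes, the cells that make cartilage, collected straight after their isolation from ribs of E18.5 mice, shortly before birth. Wild-type chondrocytes (3 libraries) were compared with Jab1flox/flox; Col2a1-Cre mutants, called cKO in the labels (3 libraries), to ask what changes when Jab1 is removed from cartilage cells. Jab1, encoded by Cops5, is the COP9 signalosome subunit that removes Nedd8 from cullins. Cre under the Col2a1 promoter acts in Col2a1-expressing cells, so other cells in the rib keep the gene, and the labels call the controls wild-type without giving their alleles. Both groups went through pronase and overnight collagenase digestion.

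TGF-beta ligands are secreted in latent form, held in the matrix by latent TGF-beta binding proteins, and act once freed. A freed ligand binds the type II receptor (Tgfbr2), which phosphorylates the type I receptor (Tgfbr1), and this kinase in turn phosphorylates the transcription factors SMAD2 and SMAD3. Betaglycan, the product of Tgfbr3, is a co-receptor that presents ligand, TGF-beta 2 above all, to the type II receptor. In growing cartilage the pathway is known for supporting matrix production and for holding back hypertrophy, the final step of chondrocyte maturation.

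Of the genes on which the results turn, 4 are shown with the bases before their annotated start, because they form the contrasts described below: the receptor pair, of which Tgfbr2 alone rose, and the most and the least abundant ligand. RefSeq (GRCm38.p6) held a start window for 6 of the 9 genes, namely Tgfb1, Tgfb2, Tgfbr1, Tgfbr2, Ltbp2 and Tgfbi. Each line gives the 250 bases before the start, 5′ to 3′ on the gene's strand, with matches in capitals to CAGAC, the core letters bound by SMAD3 and SMAD4, to TATAAA, the TATA box letters, or to GGGCGG, the box bound by Sp1, each on either strand (a match on the other strand reads as its reverse complement).
Tgfbr2, chr9:116175364-116175613, minus strand: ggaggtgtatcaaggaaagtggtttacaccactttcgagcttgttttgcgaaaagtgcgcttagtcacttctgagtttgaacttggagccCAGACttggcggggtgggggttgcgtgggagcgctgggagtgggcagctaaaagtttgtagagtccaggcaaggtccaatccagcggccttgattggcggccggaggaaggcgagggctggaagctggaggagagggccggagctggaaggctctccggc
Tgfbr1, chr4:47352972-47353221, plus strand: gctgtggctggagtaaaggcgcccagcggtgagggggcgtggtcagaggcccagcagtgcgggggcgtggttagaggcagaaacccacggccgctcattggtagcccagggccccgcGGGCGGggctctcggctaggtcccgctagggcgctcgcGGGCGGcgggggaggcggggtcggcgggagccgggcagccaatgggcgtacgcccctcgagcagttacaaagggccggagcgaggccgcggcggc
Tgfb2, chr1:186705990-186706239, minus strand: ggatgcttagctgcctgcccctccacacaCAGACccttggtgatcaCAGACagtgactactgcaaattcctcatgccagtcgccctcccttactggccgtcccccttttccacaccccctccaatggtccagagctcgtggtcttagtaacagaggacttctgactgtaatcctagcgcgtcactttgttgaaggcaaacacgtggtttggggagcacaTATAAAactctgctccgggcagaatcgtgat
Tgfb1, chr7:25686752-25687001, plus strand: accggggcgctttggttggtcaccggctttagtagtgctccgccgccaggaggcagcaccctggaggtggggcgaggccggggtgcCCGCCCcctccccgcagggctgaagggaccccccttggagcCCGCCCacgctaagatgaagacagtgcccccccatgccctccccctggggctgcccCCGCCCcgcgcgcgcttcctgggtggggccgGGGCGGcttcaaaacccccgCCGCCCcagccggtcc

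The Tgfbr2 window held 1 CAGAC match, starting 160 bases before the start, and no match to GGGCGG. The Tgfbr1 window shown had no CAGAC match and 2 matches to GGGCGG, and a further RefSeq start of this gene had 1 CAGAC match. Tgfb2 had 2 CAGAC matches and a TATAAA match 31 bases before the start, whereas Tgfb1 had neither and 5 matches to GGGCGG. Among the windows not printed, Ltbp2 and Tgfbi held 2 CAGAC matches each. CAGAC is common: 42.2% of 32851 mouse windows of this length held it, against 12.4% for TATAAA and 32.7% for GGGCGG. The AP-1 site, TGANTCA, was in none of the windows of these genes and in 6.75% of all windows, and the full SMAD palindrome GTCTAGAC was likewise in none of them and in 0.167% of all. The base composition differed between the ligands, with 53.6% G and C in the Tgfb2 window and 75.2% in the Tgfb1 window. These matches are letters in a window, with no binding measured in this study.

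The libraries behind these values held 571180 to 631534 FPKM in total. The labels give 1 nominal read number for all samples, and the mapped depth of each library is unknown, so no counting interval is given. Cops5, the gene targeted, measured 42.3, 39.8 and 40.1 FPKM in wild-type libraries 0, 1 and 2 and 17.0, 18.0 and 17.2 FPKM in mutant libraries 0, 1 and 2, so every mutant library was below every wild-type library. Mutant library 0 stood apart by its immediate-early genes: Fos, which is induced within minutes of a stimulus, was at 587 FPKM there and at 18.3 and 19.97 in the other mutant libraries, against 8.60 to 14.9 in wild type. The summed level of 10 such dissociation-linked genes was 1508 FPKM in that library, 104 and 114 in the other mutants and 60.8 to 72.1 in wild type. The difference was thus not confined to library 0. Of the 9 tested, all had a positive log2 fold change, with a median of 1.77, and none was called. Groups did not overlap for 7 of the 9, all higher in the mutant, beside 16.3% of all genes tested. Y-linked genes also separated the groups, with Ddx3y at 7.78, 46.1 and 36.0 FPKM in mutant libraries 0, 1 and 2 and at most 0.450 in wild type, so what moves with sex and what moves with genotype cannot be told apart from the groups alone. Chondrocyte markers were abundant in all 6 libraries, and 12 of 16 listed markers were analysed here. They summed to 11991 to 13814 FPKM in wild-type libraries and to 13035, 8731 and 8340 FPKM in mutant libraries 0, 1 and 2. Of the 12, 2 were called lower in the mutants. The log2 fold change was negative for 10 of the 12, with a median of -0.47, where 7086 of all 14012 genes tested were negative. The sample title of wild-type library 0 carries day 30 of the month and all others day 24, with no word on what was done that day.

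Several markers of other cells also differed. The 5 erythroid markers summed to 175 to 200.3 FPKM in wild type and 13.9 to 44.9 in mutant libraries, and all 4 tested were lower. The 3 granulocyte markers summed to 64.4 to 183 against 0.837 to 6.22 FPKM, and both tested were lower. Skeletal muscle markers (9 genes) summed to 144 to 171 against 51.6 to 75.4 FPKM, most of it Tnnt3, which was lower. The other sums overlapped between groups. Macrophage and leukocyte markers (6 genes) summed to 31.4 to 64.4 against 9.57 to 36.9 FPKM and megakaryocyte markers (4 genes) to 4.46 to 11.8 against 2.05 to 5.73 FPKM, with none called in either list. Fibroblast and perichondrial markers (9 genes) summed to 967 to 1288 against 707 to 1193 FPKM, with Twist1 higher and Lum lower. The osteoblast (5 genes), tendon (3 genes) and endothelial (6 genes) sums, with no gene called, were at 54.5 to 162 against 33.7 to 200.3 FPKM, 5.37 to 8.98 against 8.25 to 34.1 FPKM and 2.69 to 4.66 against 1.42 to 11.3 FPKM. No listed marker was at 0 in all 6 libraries, and Ppbp and Gp9, markers of the platelet lineage, were at 0 in some. The part of these cells in the results below was not tested, and in bulk RNA fewer cells of a type cannot be told apart from less RNA per cell.

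In mutant chondrocytes 2 of the 9 genes rose, both of them receptors: Tgfbr3, 2.07-fold by the ratio of mean FPKM, and Tgfbr2, 1.28-fold. None fell, and 7 did not pass the test (limma on log2(FPKM + 1), adjusted p under 0.05 over all genes tested). Across all 14012 genes, 3.48% were called higher, 2.59% lower and 6.07% in either direction. Groups did not overlap for 5 of the 9, all of them higher in the mutant (Tgfb3, Tgfbr2, Tgfbr3, Ltbp2 and Pmepa1), where 16.3% of all genes tested were separated in that direction and 32.2% in either. The median log2 fold change of the 9 genes was 0.44, beside -0.00 over all genes tested. Per mutant library, the median of the 9 against the wild-type mean was 0.58, 0.41 and 0.32 in libraries 0, 1 and 2, and 5 of the 9 genes were highest in library 0.

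**Figure D1:**
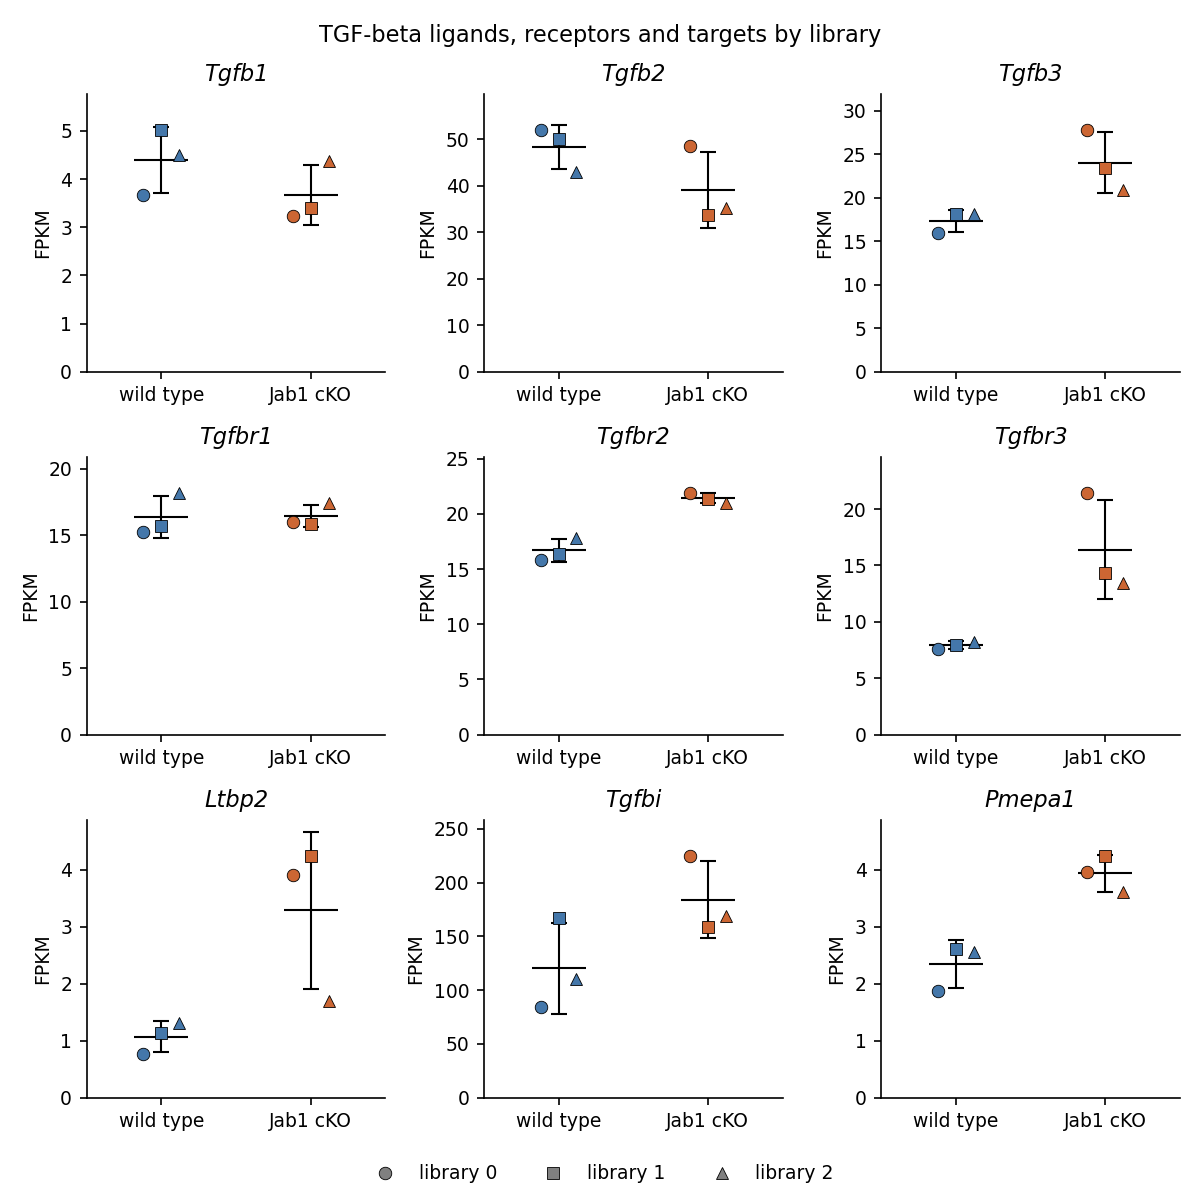
FPKM of each of the 9 genes (y axis, from 0) in wild-type (blue) and Jab1 cKO (orange) libraries; marker shape gives the library number, the bar the mean and the whiskers 1 SD (n = 3). The 3 mutant libraries lie above all wild-type libraries for Tgfb3, Tgfbr2, Tgfbr3, Ltbp2 and Pmepa1, and overlap them for the other 4 genes.

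Tgfbr2 (chromosome 9, 116084293 to 116175360, minus strand), the receptor that binds ligand first, measured 15.9, 16.4 and 17.8 FPKM in wild-type libraries 0, 1 and 2 and 21.9, 21.3 and 21.03 FPKM in mutant libraries 0, 1 and 2. The lowest mutant library was above the highest wild-type library, and the mutant values lay within 1 FPKM of each other. Tgfbr2 thus rose from 16.7 ± 1.03 to 21.4 ± 0.453 FPKM (SD, n = 3), which is 0.34 on the log2(FPKM + 1) scale (SE 0.0666, adjusted p = 0.044 by limma). Its call was lost when any single library was left out, with adjusted p = 0.13, 0.14 and 0.099 without wild-type libraries 0, 1 and 2 and 0.077, 0.11 and 0.12 without mutant libraries 0, 1 and 2, while its log2 fold change stayed between 0.31 and 0.39. A fit that also held the Y-linked level gave 0.40 and an adjusted p = 0.28. Y-linked genes were barely present in wild type, so the slope of that fit came mainly from mutant library 0 against the other mutants. Its genotype term extends the mutant values to a Y-linked level that no mutant library had, so it cannot separate sex from genotype.

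Tgfbr3 (chromosome 5, 107106570 to 107289629, minus strand), which encodes betaglycan, had the larger rise. It measured 7.58, 7.95 and 8.26 FPKM in the wild-type libraries against 21.4, 14.3 and 13.4 FPKM in the mutant libraries 0, 1 and 2. The wild-type libraries were close together, and mutant library 0 was well above the other mutants, which were themselves above every wild-type library. The group values were 7.93 ± 0.340 and 16.4 ± 4.39 FPKM (SD, n = 3), which is 0.93 in log2 (SE 0.176, adjusted p = 0.042 by limma). Without mutant library 0, the library with the highest level of immediate-early genes, Tgfbr3 was still higher, by 0.74 in log2 (adjusted p = 0.018). Leaving out wild-type library 0, 1 or 2 or mutant library 1 or 2 ended the call (adjusted p = 0.13, 0.13, 0.13, 0.085 and 0.082). In the fit that held the Y-linked level Tgfbr3 passed at a log2 fold change of 1.85 (adjusted p = 0.025). That value rests mainly on mutant library 0, where Tgfbr3 was highest and Ddx3y lowest among the mutants. It is not read as a genotype effect apart from sex.

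Tgfbr1 (chromosome 4, 47353222 to 47414931, plus strand), the kinase partner of Tgfbr2, did not follow it. It measured 15.3, 15.7 and 18.2 FPKM in the wild-type libraries against 16.0, 15.9 and 17.4 FPKM in the mutant libraries, so the mutant range lay inside the wild-type range. The means were 16.4 ± 1.57 and 16.4 ± 0.839 FPKM, a log2 fold change of 0.00 with a 95% interval of -0.21 to 0.22 (limma adjusted p = 0.98). The interval, not the p, bounds the change that these libraries allow.

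In wild type the type I and type II receptors were thus at near-equal length-scaled levels, with a log2 ratio of Tgfbr1 to Tgfbr2 of -0.06, -0.06 and 0.03 in libraries 0, 1 and 2. In mutant libraries it was -0.45, -0.43 and -0.27, and the groups did not overlap. The difference was -0.36 (exact two-sided permutation p = 0.1, which is the smallest 3 against 3 libraries allow, and 0.125 after Benjamini-Hochberg adjustment over 5 shares and ratios). The log2 ratio of Tgfbr3 to Tgfbr2 was -1.07, -1.04 and -1.11 in wild-type libraries 0, 1 and 2 against -0.03, -0.57 and -0.65 in the same order of mutant libraries, a difference of 0.66 with the same exact permutation p. Betaglycan transcripts were therefore below Tgfbr2 in all 6 libraries and closest to it in mutant library 0. The summed level of the 3 receptors was 38.7, 40.0 and 44.3 FPKM in the wild-type libraries against 59.4, 51.5 and 51.8 FPKM in the mutant libraries.

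The ligands gave no call. Tgfb2 (chromosome 1, 186622792 to 186705989, minus strand) was the most abundant ligand, at 52.1, 50.2 and 43.0 FPKM in the wild-type libraries against 48.5, 33.7 and 35.3 FPKM in the mutant libraries 0, 1 and 2. Mutant library 0 lay within the wild-type range, and the other mutant libraries lay below it. The means were 48.4 ± 4.78 and 39.2 ± 8.13 FPKM (log2 fold change -0.31, 95% interval -0.71 to 0.08, limma adjusted p = 0.29). Without mutant library 0 the log2 fold change was -0.47 (adjusted p = 0.073). In the fit that held the Y-linked level, which rests mainly on mutant library 0, the sign turned, to 0.48 (adjusted p = 0.29). Against the wild-type mean, mutant libraries 0, 1 and 2 were at 0.007, -0.51 and -0.44 in log2, so no rise is read from that sign.

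Tgfb3 (chromosome 12, 86056745 to 86079041, minus strand) measured 15.9, 18.1 and 18.1 FPKM in the wild-type libraries against 27.8, 23.4 and 20.9 FPKM in the mutant libraries 0, 1 and 2. All mutant libraries were above all wild-type libraries, with library 0 again highest. The means were 17.4 ± 1.27 and 24.0 ± 3.52 FPKM (log2 fold change 0.44, 95% interval 0.14 to 0.73, limma adjusted p = 0.095), short of the threshold after adjustment over all genes. Tgfb3 passed in 1 of 15 alternatives, among protein-coding genes only (adjusted p = 0.047). It did not pass when any single library was left out (adjusted p = 0.11 to 0.22) or with the replicate block (0.23). In the fit that held the Y-linked level it was at 0.92 without passing (adjusted p = 0.14).

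Tgfb1 (chromosome 7, 25687002 to 25705077, plus strand), the ligand that blood cells and platelets also make in quantity, was the scarcest, at 3.67, 5.02 and 4.49 FPKM in the wild-type libraries against 3.24, 3.39 and 4.38 FPKM in the mutant libraries. The groups overlapped, and the means were 4.39 ± 0.682 and 3.67 ± 0.617 FPKM (log2 fold change -0.21, 95% interval -0.56 to 0.14, limma adjusted p = 0.42). Leaving out 1 library moved it to between -0.31 (without mutant library 2) and -0.12 (without wild-type library 1), and the fit that held the Y-linked level gave -0.48. Unlike Tgfb1, the granulocyte sum given above was lower in every mutant library than in any wild-type library. The macrophage and megakaryocyte sums overlapped between groups. The part of these cells in the Tgfb1 value was not tested.

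Summed over the 3 ligands, the level was 71.7, 73.3 and 65.6 FPKM in the wild-type libraries against 79.6, 60.5 and 60.6 FPKM in the mutant libraries, with overlapping ranges. Tgfb2 held 72.7, 68.4 and 65.6% of ligand FPKM in wild-type and 60.9, 55.7 and 58.3% in mutant libraries, a difference of -10.6 percentage points. Tgfb3 held 22.2, 24.7 and 27.6% in the wild-type libraries against 35.0, 38.7 and 34.5% in the mutant libraries, a difference of 11.2 percentage points. For both shares the groups did not overlap (exact two-sided permutation p = 0.1, the smallest possible, and 0.125 adjusted), and these shares are not independent of each other, since they sum with Tgfb1 to the whole. Tgfb1 held 6.27 ± 0.997% against 5.64 ± 1.58% (SD, n = 3; exact permutation p = 0.7).

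**Figure D2:**
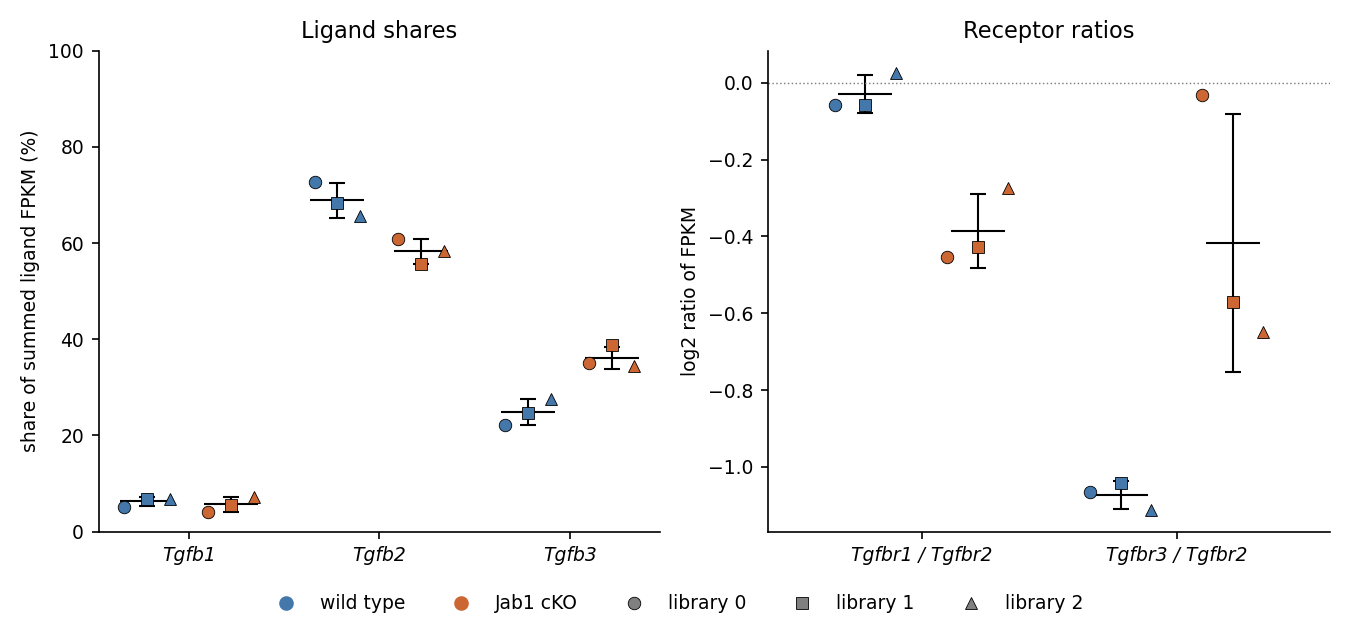
Left, share of each ligand in the summed FPKM of Tgfb1, Tgfb2 and Tgfb3 (percent, y axis from 0 to 100); right, log2 ratio of FPKM between receptors, with 0 marking equal levels. Points are libraries, bars means and whiskers 1 SD (n = 3 per group); the Tgfb2 share is lower and the Tgfb3 share higher in every mutant library than in any wild-type library.

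Pmepa1 (chromosome 2, 173224458 to 173276533, minus strand) encodes a membrane protein that sequesters SMAD2 and SMAD3, and is a feedback target of the pathway. It measured 1.86, 2.61 and 2.56 FPKM in the wild-type libraries against 3.96, 4.25 and 3.61 FPKM in the mutant libraries 0, 1 and 2. The groups did not overlap, and library 0 was not the highest mutant here. The means were 2.34 ± 0.416 and 3.94 ± 0.320 FPKM (log2 fold change 0.57, 95% interval 0.26 to 0.88), and the gene missed the threshold (limma adjusted p = 0.060). It passed in 2 of 14 alternatives, quantile normalization and protein-coding genes only (limma adjusted p = 0.044 and 0.027). It did not pass when any single library was left out (adjusted p = 0.10 to 0.15). Nor did it pass with the replicate block, without the filter or with the Y-linked covariate (adjusted p = 0.17, 0.13 and 0.42).

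Ltbp2 (chromosome 12, 84783212 to 84876532, minus strand) encodes a microfibril protein of the latent TGF-beta binding family that does not itself hold latent TGF-beta. Its values were low, at 0.774, 1.13 and 1.31 FPKM in the wild-type libraries against 3.91, 4.24 and 1.70 FPKM in the mutant libraries 0, 1 and 2. Mutant libraries 0 and 1 were high and mutant library 2 was only slightly above wild type. The means were 1.07 ± 0.274 and 3.28 ± 1.38 FPKM, a 3.06-fold ratio of means and a log2 fold change of 0.997 (95% interval 0.29 to 1.70, limma adjusted p = 0.11). Ltbp2 passed in 2 of 14 alternatives. Among protein-coding genes only its limma adjusted p was 0.043. Without mutant library 2, the mutant library closest to wild type, the log2 fold change was 1.30 (adjusted p = 0.049). It did not pass without any other single library (adjusted p = 0.19 to 0.24), with the replicate block (0.22) or with the Y-linked covariate (0.35).

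Tgfbi (chromosome 13, 56609523 to 56639562, plus strand), a secreted matrix protein named for its induction by TGF-beta, was the most abundant of the 9 genes. It measured 84.1, 167 and 110 FPKM in the wild-type libraries against 225, 159 and 169 FPKM in the mutant libraries 0, 1 and 2. Wild-type library 1 lay among the mutant values, so the groups overlapped. The means were 120 ± 42.4 and 184 ± 35.7 FPKM (log2 fold change 0.65, 95% interval -0.03 to 1.33, limma adjusted p = 0.21). The value was 0.42 without wild-type library 0 and 1.43 in the fit that held the Y-linked level, and neither passed (adjusted p = 0.40 and 0.31). Its spread in wild type, 35.2% of the mean, was the widest of the 9 genes in that group.

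**Figure D3:**
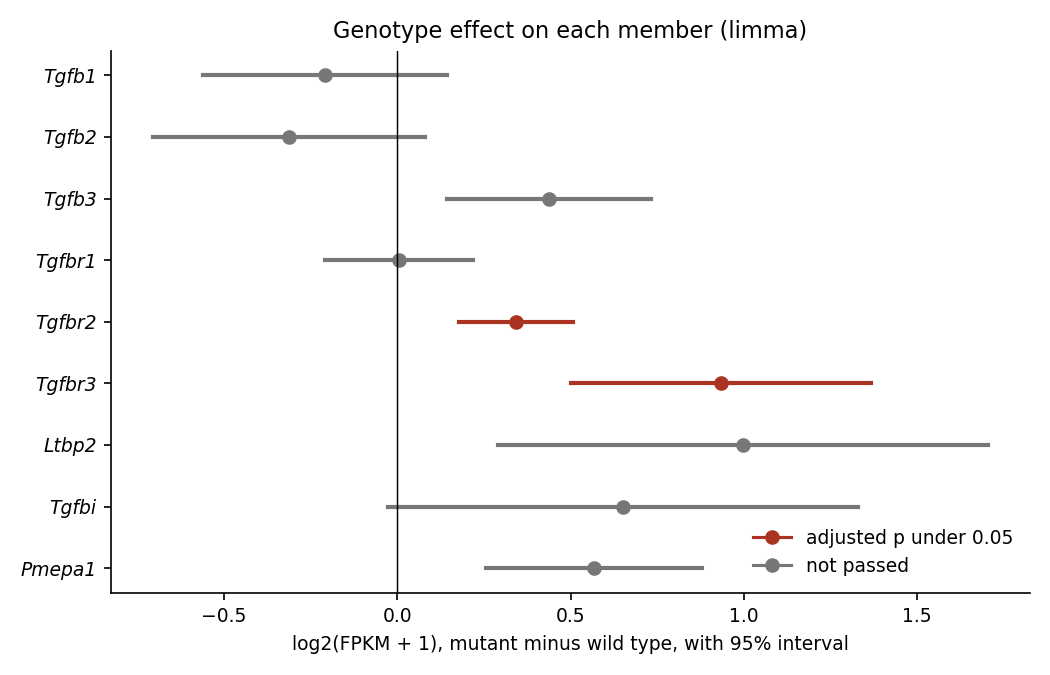
Difference of mutant from wild type in log2(FPKM + 1) (x axis) for each of the 9 genes (rows), with its unadjusted 95% interval from limma (n = 3 per group); red marks an adjusted p under 0.05. Tgfbr2 and Tgfbr3 are marked, Tgfbr1 sits at 0.00, and the intervals of Tgfb3, Ltbp2 and Pmepa1 lie above 0 without passing after adjustment.

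Without wild-type library 0, which leaves titles of 1 day, no gene of the 9 passed. The log2 fold changes were then -0.31 for Tgfb1, -0.26 for Tgfb2, 0.38 for Tgfb3, -0.042 for Tgfbr1, 0.31 for Tgfbr2, 0.91 for Tgfbr3, 0.89 for Ltbp2, 0.42 for Tgfbi and 0.46 for Pmepa1.

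By length-scaled level in wild type the order was Tgfbi, Tgfb2, Tgfb3, Tgfbr2, Tgfbr1, Tgfbr3, Tgfb1, Pmepa1 and Ltbp2. The libraries of Tgfb3, Tgfbr2 and Tgfbr1 overlapped their neighbours in this order, and the other neighbours did not overlap. In mutant libraries Tgfbr2 no longer overlapped Tgfbr1, Tgfbr3 overlapped Tgfbr1, and Pmepa1 and Tgfb1 changed places with overlapping values. Among tested genes, wild-type means lay at the 96.0 percentile for Tgfbi, the 89.1 percentile for Tgfb2, between the 67.8 and 69.4 percentiles for Tgfb3, Tgfbr1 and Tgfbr2, and at the 4.19 percentile for Ltbp2.

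The genes whose profile was most like a called receptor were found by Pearson correlation of log2(FPKM + 1) over the 6 libraries, among 8198 genes that averaged 5 FPKM or more. For Tgfbr2 these were Plekhg1 (r = 0.999), Mpdu1 (r = 0.995) and Mtap (r = 0.995), and for Tgfbr3 they were Mertk (r = 0.998), Hs3st3b1 (r = 0.996) and Smad7 (r = 0.994). With 6 points in groups that stand apart, such values are given as a description, with no test. Smad7, the inhibitory SMAD that targets the type I receptor for degradation, measured 6.09, 6.04 and 6.46 FPKM in the wild-type libraries against 16.1, 10.4 and 9.40 FPKM in the mutant libraries 0, 1 and 2. Like Tgfbr3 it was separated between groups and highest in mutant library 0, but did not pass (log2 fold change 0.81, limma adjusted p = 0.068).

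Other genes of the pathway numbered 75 over 5 lists, with Skil and Smad7 in 2 of them, and 65 were tested. For Ltbp4 and Tgfb1i1 the row used had a gene ID with no GENCODE match and was not tested, so nothing is said here of either gene. Of the 65, 5 rose and 2 fell, where 3.48% and 2.59% of all genes were called in these directions. The 5 include Inhba and Inhbb, the 2 tested genes that were under 1 FPKM in every wild-type library and entered the test only through their mutant values. Without them 3 of 63 rose, or 4.76%. With Inhba and Inhbb counted, the median log2 fold change was 0.21, and 42 of 65 had a positive value. Over all genes tested 6926 of 14012 had one. The number that rose was 0, 1 and 1 without wild-type libraries 0, 1 and 2, and 2 without either mutant library 1 or 2. The number that fell was 0 without any 1 of these 5 libraries. The counts thus did not hold in these fits, where calls over all genes also dropped, from 850 to between 174 and 288. Without mutant library 0 there were again 7 calls, of which 3 (Vasn, Bambi and Acta2) were among the original 7. In the fit that held the Y-linked level 6 of the 7 lost their call, all but Vasn, and 5 other genes were called.

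In the list of latent complex and activation genes, 1 of 14 tested fell and none rose, beside 2.59% and 3.48% of all genes tested. The median log2 fold change was -0.11, a sign that turned without mutant library 2 (0.039) and in the fit that held the Y-linked level (0.38). The one that fell was Bmp1, a protease that cuts latent TGF-beta binding protein, from 30.3 ± 1.28 to 23.2 ± 0.584 FPKM (limma adjusted p = 0.032). Its call was lost when any single library was left out (adjusted p = 0.056 to 0.11). The most abundant members were Thbs1, thrombospondin-1, an activator of latent TGF-beta, at 388 ± 39.0 against 365 ± 180 FPKM (adjusted p = 0.76), and the integrin subunit Itgb1 at 149 ± 12.3 against 171 ± 12.4 FPKM (adjusted p = 0.26). Thbs1 was at 572 FPKM in mutant library 0 and at 279 and 245 FPKM in the other mutants, above and below the wild-type range. Ltbp1, a latent TGF-beta binding protein that does hold the ligand, was named after its values were seen. It measured 2.60 ± 0.912 against 5.67 ± 0.808 FPKM with groups that did not overlap, short of the threshold (adjusted p = 0.058). In this list 3 tested genes were separated higher in the mutant and 3 lower. Over all genes tested these shares were 16.3% and 15.9%.

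Of 7 tested receptors and co-receptors outside the 9 genes, 1 rose and none fell (3.48% and 2.59% of all genes tested), with a median of 0.25. Vasn, which encodes vasorin, a membrane protein that binds TGF-beta, measured 21.96, 24.8 and 26.1 FPKM in the wild-type libraries against 75.9, 54.8 and 57.5 FPKM in the mutant libraries 0, 1 and 2. Every mutant library was far above the highest wild-type one. Vasn rose 2.58-fold, from 24.3 ± 2.11 to 62.7 ± 11.5 FPKM (adjusted p = 0.011 by limma). Its call was lost without wild-type library 0 or 1 (adjusted p = 0.053 and 0.050, the latter just over the threshold). Cd109, a co-receptor that dampens TGF-beta signalling and the most abundant of this list, was at 102 ± 19.7 against 146 ± 33.3 FPKM (adjusted p = 0.22).

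In the SMAD2/3 arm and its regulators 1 of 16 tested rose and none fell (3.48% and 2.59% of all genes tested), with a median of 0.26. Values were positive for 13 of the 16, beside 6926 of 14012 over all genes tested. Bambi, a pseudoreceptor that blocks type I receptors, rose by 1.06 in log2, from 15.7 ± 1.155 to 34.0 ± 5.60 FPKM (adjusted p = 0.015 by limma). Bambi is also known as a target of BMP signalling. The call was lost without wild-type library 0, 1 or 2 (adjusted p = 0.056, 0.067 and 0.067). The most abundant members were the phosphatase Ppm1a, at 28.9 ± 1.51 against 33.6 ± 0.666 FPKM (adjusted p = 0.12), and the shared transducer Smad4, at 26.8 ± 2.75 against 29.5 ± 3.65 FPKM (adjusted p = 0.53). Of the receptor-activated pair, Smad2 was at 24.8 ± 1.12 against 28.4 ± 1.05 FPKM with groups that did not overlap (adjusted p = 0.14), and Smad3, whose groups overlapped, measured 8.62 ± 0.580 against 10.02 ± 2.22 FPKM (adjusted p = 0.51).

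Of 25 further tested genes that TGF-beta is known to induce, 1 rose, 1 fell and 23 did not pass, with a median of 0.47. Over all genes tested 3.48% rose and 2.59% fell, with a median of -0.00, so the counts here were near those shares. Timp3, an inhibitor of metalloproteinases, rose from 28.6 ± 11.4 to 104 ± 15.1 FPKM (limma adjusted p = 0.024), and Acta2, smooth muscle actin, fell from 145 ± 22.5 to 80.7 ± 14.2 FPKM (adjusted p = 0.047). The Timp3 call held without wild-type library 1 (adjusted p = 0.0078) and was lost without any other single library (adjusted p = 0.054 to 0.094). The Acta2 call held without mutant library 0 (adjusted p = 0.042) and was lost without any other single library (adjusted p = 0.092 to 0.14). In the fit that held the Y-linked level Acta2 was at -0.22 (adjusted p = 0.77), beside -0.84 without that term. Both are known to be induced by TGF-beta in other cells, and here they moved in opposite directions. The most abundant members were fibronectin (Fn1), at 547 ± 24.5 against 570 ± 193 FPKM (adjusted p = 0.99), and Timp1, at 322 ± 69.9 against 443 ± 56.4 FPKM (adjusted p = 0.18). This list holds Junb and shares Col1a1, Col1a2, Col3a1 and Postn with the fibroblast markers, and Junb was at 113 FPKM in mutant library 0 and at 16.8 and 19.8 FPKM in the other mutants.

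Activins signal through the same SMAD2 and SMAD3 by other receptors. In the list of activin genes, which also holds an inhibin subunit and binding proteins, 5 were tested, with a median log2 fold change of -0.11. Inhba, the activin A subunit, measured 0.325, 0.866 and 0.769 FPKM in the wild-type libraries against 2.68, 2.29 and 1.93 FPKM in the mutant libraries. Inhbb, the activin B subunit, measured 0.399, 0.634 and 0.502 against 1.50, 1.75 and 2.36 FPKM. Both passed (limma adjusted p = 0.043 and 0.045) after entering the test through their mutant values alone, so no rise is read from these calls. With no filter on low values neither passed (adjusted p = 0.067 and 0.058), and none of the activin genes was called in either direction. The Inhba call was lost without any single library (adjusted p = 0.084 to 0.12). Inhbb was likewise lost in the 5 fits where it was tested (adjusted p = 0.056 to 0.14), and it fell under the minimum mean without mutant library 2. The most abundant members were the follistatin-like Fstl1, at 120 ± 6.98 against 112 ± 12.05 FPKM (adjusted p = 0.54), and the inhibin subunit Inha, at 3.90 ± 0.188 against 2.68 ± 0.526 FPKM (adjusted p = 0.12).

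**Figure D4:**
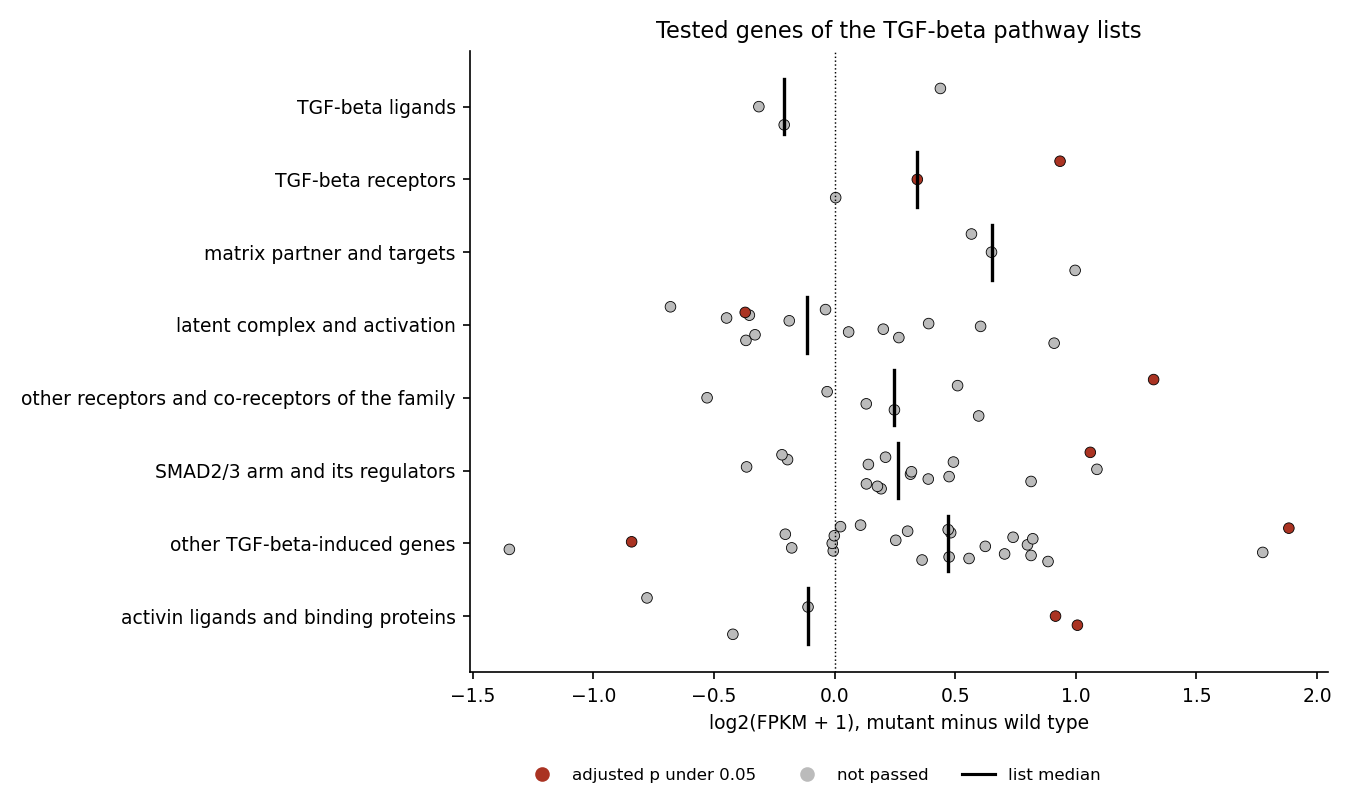
Difference of mutant from wild type in log2(FPKM + 1) (x axis) for every tested gene in each pathway list (rows); points are genes, red those with an adjusted p under 0.05, and the black bar is the list median. Called genes lie on both sides of 0, and the median is highest, at 0.65, in the row of Ltbp2, Tgfbi and Pmepa1.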

How the data were processed

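RNA sequencing of rib chondrocytes from 3 wild-type and 3 mutant embryonic samples was used. The labels' protocols name stranded, ribosomal RNA-depleted libraries, and the submitters' processing notes name STAR, Cufflinks, Cuffdiff and mm10 without versions, while the protocols name CLC Genomics Workbench. The authors deposited FPKM, and whether Cuffdiff's scaling between libraries was also applied is not stated. Columns are numbered 0, 1 and 2 and the labels 0, 1 and 3, so the columns numbered 2 were assigned to their group only. Nothing says that libraries came from separate embryos, so a p-value here reflects library-to-library spread alone, part of which may be technical.

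Genes averaging 1 FPKM or more were transformed to log2(FPKM + 1), and limma 3.58.1 (R 4.3.3) fitted 1 genotype term with an intensity trend, after being tested on simulated data. Two-sided p-values received Benjamini-Hochberg adjustment across the genes tested. The scale understates changes of low genes. Coordinates are from GENCODE M21 (mm10).

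The genes, lists and tests were chosen with earlier results of these data known. Of each list, the called genes and the 2 most abundant are named; Smad2, Smad3, Smad7, Ltbp1, Fos, Ddx3y, Junb, Tnnt3, Twist1 and Lum were named after their values were seen. Alternatives were other pseudocounts, filters and scalings, a replicate block, a Y-linked covariate, protein-coding genes only and leaving out each library.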

Additional observations from a re-analysis of the deposited data

How the results depend on the processing

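Other pseudocounts, a stricter filter at 5 FPKM, scaling by median of ratios and quantile normalization each called 2 of the 9 genes higher, but under quantile normalization these were Tgfbr3 and Pmepa1, with Tgfbr2 at adjusted p = 0.051. Without a filter on low values 0 of the 9 were higher, beside 3 higher and 1 lower of the other pathway genes. Of the 27734 genes in that fit, 295 were higher and 166 lower. In the fit with a Y-linked covariate 1 of the 9 was higher, 6 other pathway genes higher and 0 lower, with 1 of the 7 calls of the full set of genes and libraries among those 6, beside 189 higher and 47 lower of all genes. Among protein-coding genes only, 5 of the 9 were higher, with 15 other pathway genes higher and 4 lower. That fit tested 11055 genes and called more of them, 741 higher and 632 lower. Leaving out 1 library gave 0 to 1 of the 9 higher, 0 to 5 other pathway genes higher and 0 to 2 lower. Of the 13940 to 14000 genes tested in these fits, 99 to 377 were higher and 66 to 289 lower. In no alternative was any of the 9 called lower.

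Replicate numbers did not pair the samples: deviations of same-numbered libraries correlated at -0.03, -0.04 and -0.02. With the replicate number as a block, 0 of the 9 were higher (Tgfbr2 adjusted p = 0.18, Tgfbr3 0.15), 0 other pathway genes were higher and 0 lower, and 44 of all genes were higher and 16 lower.

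The log2 fold change of Tgfbr1 turned to -0.019 with quantile normalization and -0.088 with the Y-linked covariate, and ranged from -0.042 to 0.078 when 1 library was left out. The median of the latent complex genes turned to 0.039 without mutant library 2 and to 0.38 with the Y-linked covariate, and that of the activin genes to 0.16 without the filter. The log2 fold change of Tgfb2 turned to 0.48 with the Y-linked covariate. The difference in the Tgfb1 share ranged from -1.43 to 0.15 percentage points when 1 library was left out. The cause of these changes was not tested. The mapped depth is unknown, so what it limits for the low genes Ltbp2 and Pmepa1 cannot be given.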
